A study of Mus musculus with 6 samples.

Results

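The genes described here make cholesterol and other sterols, control that synthesis, or move sterols into and out of intestinal cells. They were measured in intestinal RNA of 6 male C57 mice (C57BL/6J in the published methods) given 7 Gy of total body radiation, 3 of them treated with PBS and 3 with free ubiquitin (free Ub), with 1 array for each mouse. By the labels the mice were 4 weeks old, were treated after the radiation and were sampled 3.5 days after it. The published methods and legend instead describe older mice, injection before the radiation and an earlier sampling, so age, order and time are not settled. All 6 mice were irradiated, and no unirradiated intestine was analysed here. The 29 genes were chosen by name as a pathway because Insig1 was higher with free Ub on a bright probe. That comparison of free Ub with PBS therefore led to the choice, and the values of the same comparison are given as a description. A named probe was found for 25 of the 29 genes, out of 19057 named genes on the arrays. Acat2, Hmgcs1, Fdft1 and Soat2 have none in the annotation used. Where a gene has several probes, the brightest by its average over the mice was read. Values are log2 signal, on which a difference of 1 is a doubling.

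Cells adjust their sterol synthesis to the sterol they already hold. When sterol in the endoplasmic reticulum is low, the escort protein SCAP carries the membrane-bound SREBP factors to the Golgi, where they are cut, and the released part enters the nucleus and switches on the enzymes of the mevalonate and sterol pathway. When sterol is high, the INSIG proteins hold SCAP back. Insig1 is itself a target of SREBP, so its RNA is widely read together with that of the enzymes. Enterocytes, the absorptive cells of the small intestine, also take up sterol from the gut lumen through NPC1L1 and return part of it through the ABCG5 and ABCG8 pair.

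None of the 25 genes separated free Ub from PBS on its brightest probe. In RNA of whole tissue, fewer cells of a type and less RNA per cell cannot be told apart. In every one the values of the groups overlapped (0 of 25 apart), where the groups did not overlap for 8.76% of all genes and for 10.7% of the 11923 genes above the floor (the lowest value of the array) on all 6 arrays, as all 25 were. With 1 sample left out the count was 0 to 7, while the share over the genes above the floor rose by construction to between 18.5% and 24.1%. It was 7 of 25 without PBS replicate 3 (24.1% of those genes), 4 without PBS replicate 1 (19.1%) and 3 without free Ub replicate 1 (23.4%). At an unadjusted p under 0.05 in limma, 0 of the 25 passed, beside 5.57% of all genes and 6.32% of those above the floor. At an adjusted p under 0.05, 0 passed, beside 0.0577% of all genes (11 genes). The mean was higher with free Ub for 17 of the 25 and lower for 8, and the median difference was 0.10 (all differences are free Ub minus PBS, in log2). Over the genes above the floor 46.1% were higher and the median was -0.03. By role, 12 of 15 synthesis enzymes were higher with a median of 0.13, 3 of 5 genes of SREBP control with a median of 0.07, and 2 of 5 transport genes with a median of -0.05. Leaving out 1 sample turned the sign of the last 2 medians (-0.02 to 0.15 and -0.18 to 0.06), and averaging all probes of a gene moved that of the enzymes to 0.22. The difference changed sign without 1 sample for 11 of the 25 genes. Because Insig1 led to the choice, nothing is read from these counts.

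For the 24 genes other than Insig1 the limma adjusted p lay between 0.878 and 0.995. The 95% interval of the difference held 0 for all 24, and for 18 of them it stayed within 1 log2 in either direction. A doubling or halving of those 18 lay outside their intervals, while some smaller changes lay inside them. The precision was set by the spread between samples, with an SD within a group between 0.04 and 0.59 for every gene apart from Abca1. With 1 array per mouse, spread between mice cannot be told from spread between arrays.

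**Figure D1:**
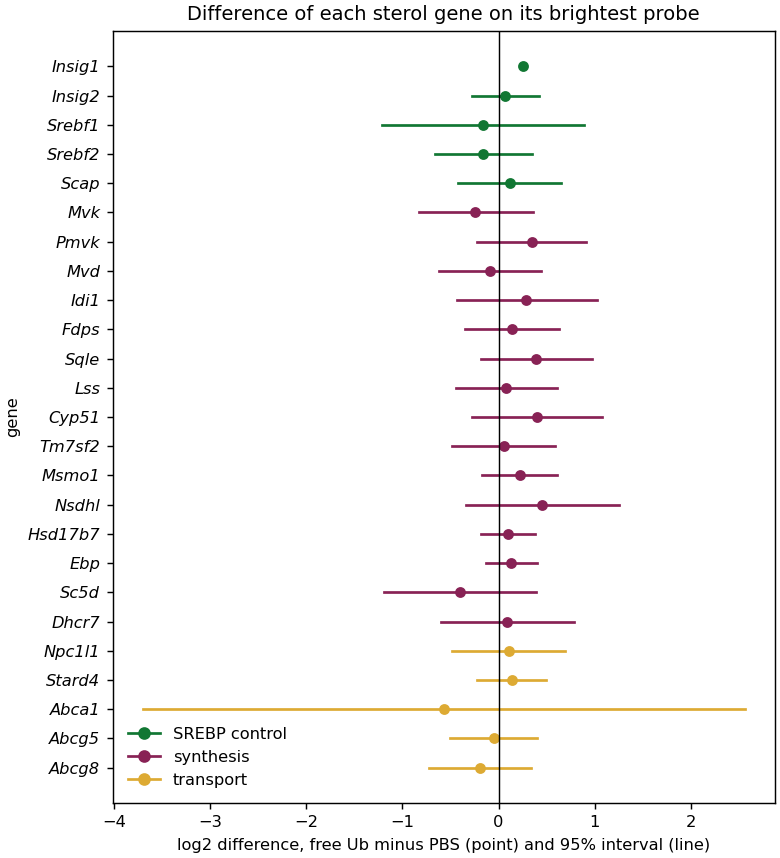
Difference between free Ub and PBS for the 25 genes on their brightest probe, in log2 on the horizontal axis, with the 95% interval of limma as a line and colours for the 3 roles. Insig1, which led to the choice, has no interval; the intervals of the other 24 genes cross 0, and that of Abca1 is the widest, from -3.70 to 2.56.

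Insig1, which retains SCAP in the endoplasmic reticulum, differed in reading between its 4 probes. All 4 are annotated to the same transcript. On the brightest, the PBS mice read 7.49, 7.07 and 6.67 and the free Ub mice 7.15, 7.24 and 7.61, a difference of 0.26. Here PBS replicate 1 lay above free Ub replicates 1 and 2, and the groups overlapped. On the second probe the PBS mice read 6.17, 6.08 and 6.44 and the free Ub mice 7.01, 6.86 and 6.71, a difference of 0.63. On the third probe, the one behind the choice, they read 5.0, 5.84 and 5.74 with PBS and 6.68, 6.47 and 6.68 with free Ub, a difference of 1.08 or 2.12-fold. All free Ub mice lay above all PBS mice on both of these probes. The dimmest probe was at the floor in PBS replicate 1, ranged from 1.06 to 3.78 elsewhere and overlapped between the groups. The third probe led to the choice, so its fold above 2, unadjusted p under 0.05 and mean above 6 support nothing. With adjustment over all probes, the limma p was 0.651 on the third probe and 0.563 on the second. The third probe met these thresholds with little room, at a mean of 6.07 and a difference of 1.08. The second probe, with a mean of 6.54 and a difference of 0.63, fell short of the fold. As the gene behind the choice, Insig1 is described only. PBS replicate 1 was the highest of the PBS mice on the brightest probe and the lowest on the third, so the probes did not order the PBS mice alike.

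**Figure D2:**
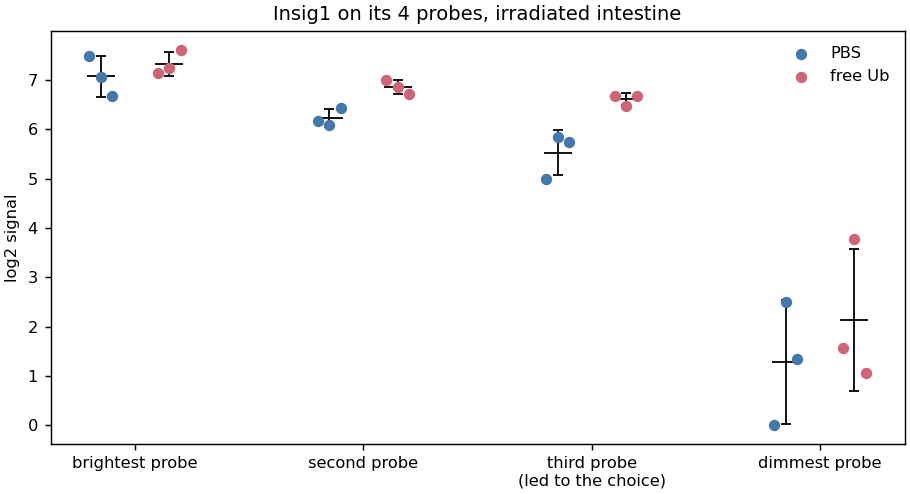
log2 signal of Insig1 on its 4 probes (horizontal axis, from brightest to dimmest) in the 3 PBS mice (blue) and 3 free Ub mice (red); black bars show the mean and SD. The groups are apart on the second and the third probe and overlap on the brightest, where the difference is 0.26, and on the dimmest.

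The choice of genes did not use their promoters. SREBP works at many sterol genes beside NF-Y, which binds the CCAAT box. In the 250 bases before RefSeq gene starts (build GRCm38.p6), CCAAT on either strand was found in 21 of 33 windows of the 24 listed genes that have one, and in 33.8% of all 32851 windows. The 15 synthesis enzymes with a window include Acat2 and Hmgcs1, which have no probe, and lack Fdps and Sqle, which have one. By window, CCAAT was found in 14 of 18 for these enzymes, in 5 of 10 for SREBP control and in 2 of 5 for transport. By gene, 14 of these 15 had CCAAT before at least 1 start, as did 4 of 5 genes of SREBP control and 2 of 4 transport genes. Some genes have several windows and no share by gene was computed over all genes, so the counts by gene do not compare with 33.8%. Mvk had 5 matches. The sterol element as TCACNCCAC was found in 1 of the 33 windows, that of Hmgcs1, and in 1.05% of all windows. The E-box CACGTG was found in 6 of the 33 and in 6.02% of all windows. No match overlapped another. A match is a run of letters and not a shown binding site. Fdps, Fdft1, Sqle, Stard4 and Soat2 have no window in the table.

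Shown are the windows of Insig1, whose probe led to the choice, and of Nsdhl and Cyp51, the enzymes with the most positive differences. Each is written 5′ to 3′ on the strand of its gene and ends at the base before the start, with CCAAT or its reverse complement in capitals. The Insig1 window lies at chr5:28071162-28071411 on the plus strand, the Nsdhl window at chrX:72918271-72918520 on the plus strand and the Cyp51 window at chr5:4104698-4104947 on the minus strand.
Insig1: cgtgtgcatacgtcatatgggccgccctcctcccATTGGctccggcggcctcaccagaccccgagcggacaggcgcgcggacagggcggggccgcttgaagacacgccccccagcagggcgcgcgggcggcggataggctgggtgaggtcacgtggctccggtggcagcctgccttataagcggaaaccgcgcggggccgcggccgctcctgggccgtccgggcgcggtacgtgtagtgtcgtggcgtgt
Nsdhl: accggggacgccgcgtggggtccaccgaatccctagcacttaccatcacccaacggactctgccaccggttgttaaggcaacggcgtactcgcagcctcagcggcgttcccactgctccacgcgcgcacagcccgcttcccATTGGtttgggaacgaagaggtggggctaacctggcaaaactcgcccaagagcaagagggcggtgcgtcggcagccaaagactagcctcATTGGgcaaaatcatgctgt
Cyp51: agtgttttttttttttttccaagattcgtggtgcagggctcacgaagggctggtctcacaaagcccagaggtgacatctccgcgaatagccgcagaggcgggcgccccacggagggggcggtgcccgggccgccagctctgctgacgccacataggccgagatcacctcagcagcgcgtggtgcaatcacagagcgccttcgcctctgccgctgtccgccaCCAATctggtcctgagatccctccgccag
The match starts 216 bases before the start of Insig1, 109 and 20 before that of Nsdhl and 29 before that of Cyp51. Insig1 also holds a CACGTG, 101 bases before the start.

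The other 4 genes of SREBP control showed no separation on their brightest probes. Insig2, the second INSIG protein, read 7.82, 8.13 and 8.03 with PBS and 8.07, 7.88 and 8.23 with free Ub. Its second probe read 7.64, 8.01 and 7.75 with PBS and 7.99, 8.02 and 8.03 with free Ub, a difference of 0.21. The free Ub values on that probe were close together, with PBS replicate 2 between them. Scap, the escort protein, read 6.34, 6.14 and 5.98 with PBS and 5.97, 6.20 and 6.63 with free Ub. Srebf1, whose protein drives fatty acid genes most strongly, read 4.60, 5.49 and 5.74 with PBS and 5.07, 5.60 and 4.69 with free Ub. Srebf2, whose protein drives the sterol genes most strongly, read 6.84, 6.95 and 6.37 with PBS and 6.56, 6.73 and 6.38 with free Ub. Its difference was -0.16 (95% interval -0.66 to 0.35). On its second probe the PBS mice read 6.14, 6.16 and 6.13 and the free Ub mice 6.12, 5.78 and 6.11. That order is without overlap, but free Ub replicates 1 and 3 lay within 0.05 of the PBS values. RNA of these factors does not measure their cutting or entry into the nucleus.

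The first steps of sterol synthesis turn acetyl-CoA into mevalonate and then into the isoprenoid units that all later sterols and prenyl groups use. Of the 5 measured enzymes of these steps, 3 were higher and 2 lower in mean. Pmvk, phosphomevalonate kinase, read 6.25, 5.67 and 5.84 with PBS and 6.23, 6.02 and 6.54 with free Ub, a difference of 0.35 (95% interval -0.22 to 0.91). Idi1, which makes the reactive isomer dimethylallyl diphosphate, read 4.35, 4.03 and 3.47 with PBS and 4.16, 4.05 and 4.53 with free Ub. In both genes the lowest value came from a PBS mouse and the highest from free Ub replicate 3, and PBS replicate 1 lay among the free Ub mice. Mvk, mevalonate kinase, and Mvd, mevalonate diphosphate decarboxylase, had differences of -0.24 and -0.09. Fdps, farnesyl diphosphate synthase, was bright at 9.22, 8.85 and 9.06 with PBS and 8.91, 9.47 and 9.16 with free Ub. Its difference was 0.14 (95% interval -0.35 to 0.63), and 0.09 on its second probe. The groups overlapped in all 5 enzymes.

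Squalene epoxidase and the lanosterol steps lead into the sterol ring, and Sqle and Cyp51, with differences near 0.4, belong there. Sqle, squalene epoxidase, a rate-limiting enzyme of the pathway, read 7.70, 7.80 and 8.06 with PBS and 7.89, 8.60 and 8.23 with free Ub. The difference was 0.39 (95% interval -0.18 to 0.97), and PBS replicate 3 lay above free Ub replicate 1. On its second probe Sqle differed by 0.16. Cyp51, lanosterol demethylase, whose window holds CCAAT 29 bases before the start, read 6.31, 6.58 and 6.48 with PBS and 6.34, 7.24 and 6.99 with free Ub, a difference of 0.40 (95% interval -0.28 to 1.08). Free Ub replicate 1 stood with the PBS mice in Sqle and Cyp51, and replicates 2 and 3 lay above all of them. Lss, lanosterol synthase, differed by 0.08 and Tm7sf2, a sterol reductase, by 0.06.

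The C4 demethylation that follows is carried out by Msmo1, Nsdhl and Hsd17b7 acting in turn. Msmo1, the oxidase of that step, had the tightest PBS group of the 3 genes, at 8.90, 8.96 and 9.01, and read 8.97, 9.47 and 9.08 with free Ub. Free Ub replicate 1 lay between the PBS mice, so the groups overlapped, at a difference of 0.22 (95% interval -0.17 to 0.61). Nsdhl, the dehydrogenase, with CCAAT 109 and 20 bases before its start, had the largest difference of the 15 enzymes on the brightest probe, 0.45 (95% interval -0.34 to 1.25), at 5.05, 5.26 and 5.90 with PBS and 5.90, 6.19 and 5.48 with free Ub. PBS replicate 3 lay among the free Ub mice, and did so again on the third probe, where the difference was 0.93. The other probes of Nsdhl differed by 0.30 and 0.87, the last of them with PBS replicate 1 at the floor. All 4 Nsdhl probes had a higher mean with free Ub, and the groups overlapped on every one. Hsd17b7, the reductase, varied little, from 8.39 to 8.74 over the 6 mice.

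Of the last 3 enzymes, Ebp, which shifts the double bond of the sterol ring, read 9.93, 10.06 and 10.02 with PBS and 10.31, 10.01 and 10.09 with free Ub. The difference was 0.13 (95% interval -0.13 to 0.40), among the narrowest intervals of the genes. Dhcr7, which makes cholesterol from its last precursor, differed by 0.09. Sc5d, the sterol desaturase, was the enzyme with the lowest difference, -0.40 (95% interval -1.19 to 0.39), at 3.89, 4.62 and 4.52 with PBS and 3.60, 3.85 and 4.37 with free Ub. PBS replicate 1 lay among the free Ub mice.

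The higher means of the enzymes came unevenly from the mice. Free Ub replicate 2 held the highest value in 6 of the 15 enzymes and the lowest in 0, and PBS replicate 1 held the lowest value in 7 and the highest in 0. Set against each gene's mean over the 6 samples, the median enzyme read -0.14, -0.07 and -0.05 in PBS replicates 1, 2 and 3. It read -0.09, 0.24 and 0.05 in free Ub replicates 1, 2 and 3. Free Ub replicate 1 thus lay within the PBS mice, and only replicates 2 and 3 lay above them. Without free Ub replicate 2 the median difference of the enzymes was 0.10 in place of 0.13, and 14 of the 25 genes were higher in mean in place of 17. Without free Ub replicate 1, Cyp51 (0.66, adjusted p = 0.515) and Sqle (0.57, adjusted p = 0.685) passed an unadjusted p under 0.05 in limma (2 of 25), beside 7.01% of all genes in the same setting. None of the 25 genes passed after adjustment over all genes there.

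**Figure D3:**
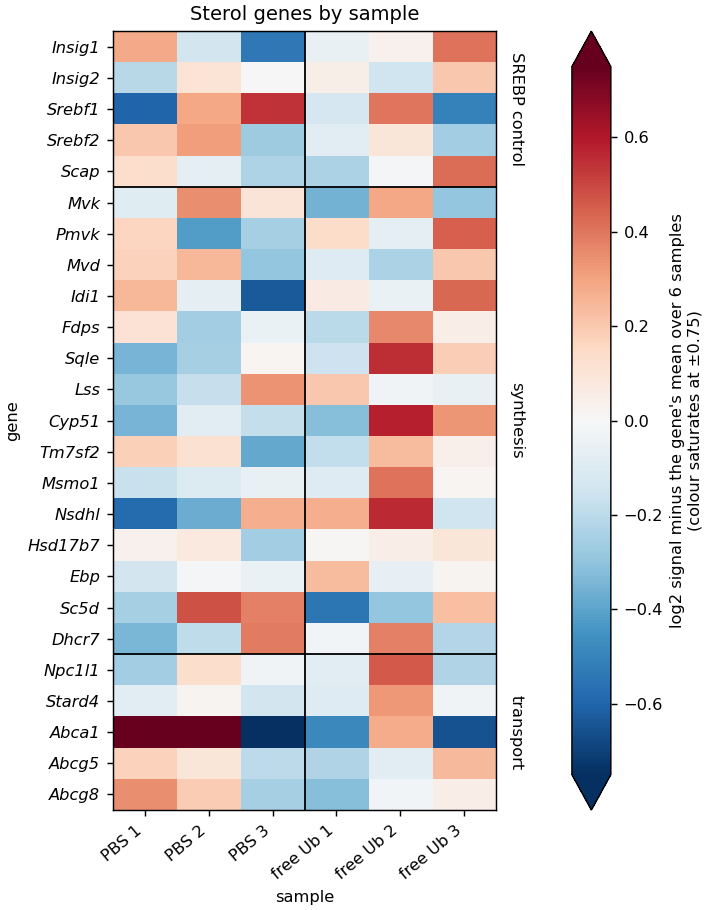
log2 signal of the 25 genes (rows, grouped by role) in the 6 mice (columns), as the difference from each gene's mean over the 6 mice, in red above and blue below. Free Ub replicate 2 is red for Sqle, Cyp51, Msmo1 and Nsdhl and holds the highest value in 6 of the 15 synthesis rows.

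The transport genes did not separate the groups. Npc1l1, the sterol uptake protein of the brush border, read 9.68, 10.07 and 9.91 with PBS and 9.86, 10.40 and 9.71 with free Ub, a difference of 0.11 (95% interval -0.48 to 0.69). Abcg5 and Abcg8, the paired subunits of the pump that returns sterol to the lumen, had differences of -0.05 and -0.19. Abcg5 read 12.36, 12.28 and 11.99 with PBS and 11.96, 12.10 and 12.43 with free Ub, and Abcg8 read 11.00, 10.84 and 10.40 with PBS and 10.33, 10.63 and 10.70 with free Ub. In both genes PBS replicates 1 and 2 were high and PBS replicate 3 and free Ub replicate 1 were low, while free Ub replicate 3 was the highest in Abcg5. Stard4, which carries sterol between membranes and is an SREBP target, read 9.33, 9.44 and 9.28 with PBS and 9.32, 9.74 and 9.39 with free Ub. Abca1, the cholesterol exporter of the basolateral side and an LXR target, was dim. It read 4.69, 3.90 and 0.55 with PBS and 2.28, 3.04 and 2.11 with free Ub, and its interval ran from -3.70 to 2.56. Without PBS replicate 3 its difference was -1.82 in place of -0.57 (limma, adjusted p = 0.519), without PBS replicate 2 it was -0.14 and without PBS replicate 1 it was 0.25. Its size and its sign therefore rested on single PBS mice.

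**Figure D4:**
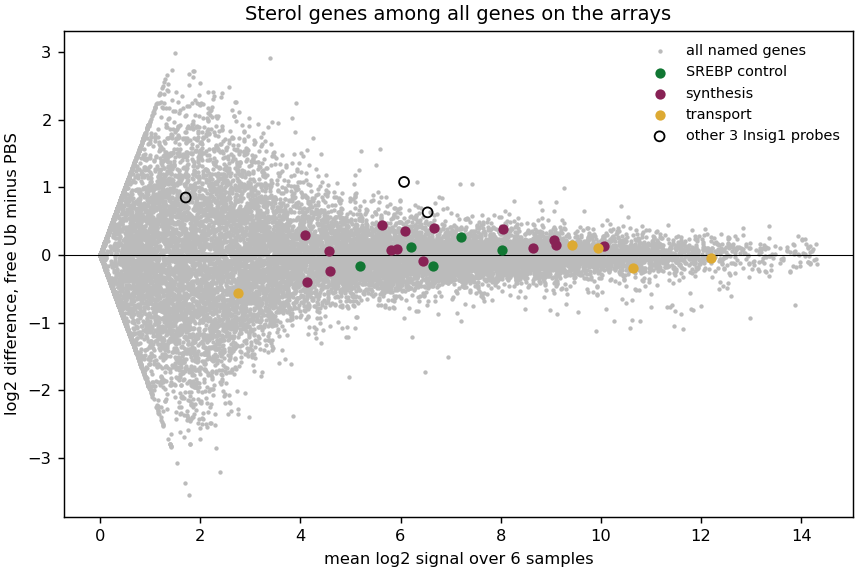
Difference between free Ub and PBS against the mean log2 signal over the 6 mice for all named genes (grey) and the 25 sterol genes on their brightest probe (coloured by role); open circles are the other 3 probes of Insig1. The coloured points lie inside the grey band at their brightness. The open circle at a mean of 6.07 and a difference of 1.08 is the probe that led to the choice, so its place above most grey points supports nothing.

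Across all probes of the 25 genes, 42 in number, the groups did not overlap on 3, beside 7.93% of all probes. These were the 2 higher probes of Insig1 and the lower second probe of Srebf2. At an unadjusted p under 0.05 in limma, 0 of the 38 probes of the other 24 genes passed, beside 5.16% of all probes. The further probes of Insig2, Srebf1, Lss, Hsd17b7 and Sqle that read at the floor in at least 1 mouse differed from -1.29 (Srebf1, at the floor in all free Ub mice) to 1.85 (Lss, at the floor in 3 mice), and that of Scap by -0.09. With all probes of a gene averaged, those at the floor included, the difference was 0.60 for Insig2 in place of 0.07, 0.50 for Hsd17b7 in place of 0.10, 0.37 for Lss in place of 0.08 and -0.73 for Srebf1 in place of -0.16. For 15 of the 25 genes only 1 probe was named, so the reading of 1 probe against another could be made for 10 genes.

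Other genes of sterol and lipid metabolism, listed for their role and not for how they moved, were set beside the 25. The annotation gave a probe to 50 of these 58 genes. Free Ub had the higher mean in 22 and the lower in 25, and Abcg1, Gramd1c and Acaca, 3 in all, stayed at the floor in every mouse. Above the floor on all 6 arrays were 39 of the 50. In limma 1 gene was higher and 1 lower at an unadjusted p under 0.05, which is 2 of 50 beside 5.57% of all genes, while an adjusted p under 0.05 was reached by 0. Gramd1b, which moves cholesterol from the plasma membrane to the endoplasmic reticulum, read 8.67, 8.66 and 8.60 with PBS and 9.13, 8.92 and 8.78 with free Ub (difference 0.30, adjusted p = 0.873). Lrp8, a receptor of the LDL receptor family, read 3.39, 3.29 and 3.45 with PBS and 3.09, 3.12 and 2.84 with free Ub (difference -0.36, adjusted p = 0.793). Neither passed with the replicate block or with the fit over the genes above the floor. Lrp8, dim at a mean of 3.2, also did not pass with values under 4 raised to 4 or with the intensity trend. The groups did not overlap in 3 of the 50, beside 8.76% of all genes, which were these genes and Erlin1, which takes part in the turnover of HMG-CoA reductase and read 6.95, 7.08 and 6.99 with PBS and 6.90, 6.76 and 6.91 with free Ub. Of the 15 genes of fatty acid synthesis, which SREBP also controls, 7 were higher, 7 lower and Acaca was at the floor. Only 9 of these 15 lay above the floor on all 6 arrays, so part of this split rests on floor values. The 7 measured genes of LXR signalling and oxysterols, which act when sterol is plentiful, were lower in 5 and higher in 1. Their differences ran from -0.77 (Ch25h) to 0.15, with a median of -0.04, beside -0.03 over the genes above the floor. Among them Ch25h, which makes 25-hydroxycholesterol and is induced by interferon, read 5.49, 4.90 and 5.26 with PBS and 4.77, 3.55 and 5.01 with free Ub, which overlapped.

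The cells in the samples were read from marker genes. The summed linear signal of 14 measured enterocyte markers was 81640 to 93103 with PBS and 82654 to 89221 with free Ub, 7 of them higher and 7 lower. Of 7 genes listed for the ileum, Fabp6 and Slc10a2 were at the floor on all 6 arrays and Fgf15 was dim at a mean of 2.94. Slc51a (11.97), Slc51b (10.45), Guca2b (13.78) and Gucy2c (7.80) were bright, and whether these are particular to the ileum was not checked. The enterocyte genes Fabp1 (0.64) and Fabp2 (0.72) also read near the floor, so a floor value does not show that a gene was silent, and the segment of intestine is not settled by these markers. The 6 measured colon markers summed to 75 to 193. The 7 pancreas markers were lower in mean with free Ub. Their sums ran from 21815 to 75554 with PBS and from 5565 to 68281 with free Ub, which overlapped. Each was lowest in free Ub replicate 3. Ctrb1 read 11.87, 9.91 and 14.15 with PBS and 13.97, 12.13 and 6.68 with free Ub. Cela1, Cpa1 and Cel ordered the mice as Ctrb1 did, with PBS replicate 3 and free Ub replicate 1 highest. The order differed in Prss2, Amy2a5 and Ins2. Against its mean over the 6 samples, the median transport gene read 0.17, 0.13 and -0.19 in PBS replicates 1, 2 and 3. It read -0.23, 0.28 and -0.02 in free Ub replicates 1, 2 and 3. A link between these values and the pancreas markers was not tested. Macrophage markers, for a cell type rich in Abca1, summed to 490 to 979 with PBS and 524 to 861 with free Ub. Of 7 markers of the proximal small intestine 6 were higher, with sums of 14862 to 22342 with PBS and 19416 to 22411 with free Ub. By mean over the 6 samples, Slc40a1 (13.16), Adh1 (12.41), Lct (11.5), Slc11a2 (10.39) and Pdx1 (9.0) were bright. Cybrd1 (6.82) and Gata4 (4.85) were dimmer. Smooth muscle markers were higher in 7 of 8, with sums of 3873 to 10602 and 6235 to 6836. Of the 8 measured markers of proliferating crypt cells, 4 were higher and 4 lower. In none of these lists did the sums of the groups separate, and their part in the differences of the sterol genes was not tested.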

How the data were processed

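Total RNA of mouse intestine was hybridized to Illumina MouseWG-6 v2 BeadChips, 1 array per mouse. The authors applied a cubic-spline normalization in GenomeStudio, and the deposited table is treated as log2 signal. Its log base, background step and floor are not given in the sources used here, and the base was inferred from the highest value, 14.49. On each array 32.2% to 33.7% of 45281 probes lie within 0.01 of the lowest value, here called the floor. Detection p-values were not used, so presence is not judged.

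Samples were grouped by their labels, and p-values measure only the spread between these samples. Of the probes, 34885 carry 1 gene symbol, 18 several and 10378 none, which gave 19057 genes on their brightest probes. No further normalization was applied. The groups were compared by limma 3.58.1 under R 4.3.3 (lmFit, eBayes, no covariate, two-sided), and p-values were adjusted by Benjamini-Hochberg over the whole set of genes. The code was tested on simulated data. With 3 against 3 an exact permutation test cannot go below p = 0.1, so none is given, and the number of arrays limits the precision.

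All listed genes with a probe are named, and of the other pathway genes those at an unadjusted p under 0.05. Erlin1 and Ch25h were named after their values were seen. The genes, lists, motifs and tests were chosen with earlier results of these data known. The alternatives were quantile normalization, median centring, values under 4 raised to 4, a floor filter, a replicate block, the methods' t-test (paired) and an unpaired one, an intensity trend with robust variances, averaged probes, all probes in 1 fit, and leaving out each sample. Insig1 on its probe with the largest difference was added after seeing the data. Promoter windows come from RefSeq, without the bases after the start.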

Additional observations from a re-analysis of the deposited data

How the results depend on the processing

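For the medians by role, leaving out 1 sample gave 0.10 to 0.16 for the synthesis enzymes, -0.02 to 0.15 for SREBP control and -0.18 to 0.06 for transport, so the last 2 have no settled sign. With all probes of a gene averaged they were 0.22, 0.01 and -0.05. The SREBP control median stayed at 0.07 with Insig1 on its probe with the largest difference. The number of genes with a higher mean was 17 in each other setting and 14 to 18 without 1 sample. No gene passed an adjusted p under 0.05 in any setting. At an unadjusted p under 0.05, the count was 1 of 25 with all probes of a gene averaged, beside 5.74% of all genes. That 1 gene is Insig1, whose average holds the probe behind the choice, so it supports nothing. Without 1 sample the count was 0 to 2. It was 1 without PBS replicate 3 (Abca1), beside 7.55% of all genes, and 2 without free Ub replicate 1 (Cyp51 and Sqle), beside 7.01%. Groups did not overlap for 2 genes with all probes of a gene averaged (Insig1 and Insig2), where no share over all genes was computed. Without 1 sample they did not overlap for 0 to 7 genes, and fewer samples overlap less by construction. The counts were 7 without PBS replicate 3, 4 without PBS replicate 1 and 3 without free Ub replicate 1. They were 2 without free Ub replicate 2 and 1 without free Ub replicate 3. In the same order, 24.1%, 19.1%, 23.4%, 18.6% and 18.5% of the genes above the floor did not overlap. Of the other pathway genes 2 passed an unadjusted p; 0 did among genes above the floor on all 6 arrays and with the replicate block in limma. There was 1 with values under 4 raised to 4 and 1 with the intensity trend. All probes of a gene averaged and the methods' paired t-test also gave 1 each. Without 1 sample the count was 0 to 3. It was 3 without PBS replicate 1 or free Ub replicate 1 or 3, 1 without PBS replicate 2 and 0 without PBS replicate 3. Of all genes tested, 3.06% to 5.85% passed in these settings with all 6 samples and 5.21% to 7.55% without 1 sample. Mice with the same replicate number did not deviate alike: their deviations correlated at -0.013, -0.01 and -0.136 over 11923 genes. With 3 mice per group these values cannot show whether the mice were paired in the experiment. The block gave 0 of the 25 genes at an unadjusted p under 0.05, beside 5.34% of all genes. Over all genes the adjusted calls went from 11 to 0 with the block, the paired t-test, the intensity trend or the genes above the floor, to 2 with values under 4 raised to 4, 5 with the unpaired t-test, 6 with all probes of a gene averaged and 18 to 28 without 1 sample; the cause was not tested. The methods' paired t-test gave 0 of the 25 genes at a fold above 2 and an unadjusted p under 0.05, and 219 of all genes.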
